A study of Mus musculus with 6 samples.

Results

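The genes of the proteasome, the multi-subunit protease that degrades ubiquitin-tagged proteins, were examined in the hippocampus of Glud1 transgenic (Tg) and wild-type (wt) mice. Members were the genes whose probesets are annotated to 1 symbol that starts with Psma, Psmb, Psmc, Psmd, Psme, Psmf or Psmg and a digit, and the probeset with the highest mean signal over the 6 arrays stood for each gene. This gave 49 genes of 18193 annotated alone on the array. Of these, 2 carry a matching symbol without being proteasome proteins, the meiotic recombination protein Psmc3ip and the Psme3 partner Psme3ip1, and were set apart. The other 47 comprised 19 genes of the core particle (Psma and Psmb), 20 of the regulatory particle (Psmc and Psmd) and 8 for activators, an inhibitor and assembly chaperones (Psme, Psmf and Psmg). Psme2 has no value here, since its probeset is annotated to several genes.

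The Tg mice carried a Glud1 transgene, for the enzyme glutamate dehydrogenase, whose expression an enolase (Nse) promoter restricts to neurons, and were compared with wt mice to see how hippocampal transcription differs under a lifelong moderate excess of synaptic glutamate. All animals were males of 9 months on a C57BL/6 background, with 3 Tg and 3 wt mice and 1 array for each mouse. The study calls the wt mice littermates, but the labels tie no Tg mouse to a wt mouse of its litter. The hippocampus was homogenized whole, so that fewer cells of a type and less RNA per cell cannot be told apart in any value that follows.

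The proteasome is built as a barrel, the core particle, capped by a regulatory particle. Outer rings of alpha subunits (Psma) gate the barrel, and inner rings of beta subunits (Psmb) hold the proteolytic sites. In the regulatory particle a ring of ATPases (Psmc) unfolds the substrate, while the non-ATPase subunits (Psmd) form the scaffold, the ubiquitin receptors and the lid that removes ubiquitin. Interferon induces alternative catalytic subunits, which make up the immunoproteasome and generate peptides for antigen presentation. In neurons the proteasome turns over synaptic proteins, and its subunit genes are known to be transcribed together under the control of the factor Nfe2l1.

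Of the 47 proteasome genes, 45 passed the filter on low signals, which left out the dimmest 31% of probesets. The genes left out were Psma8, a testis counterpart of an alpha subunit, with signals of 53.1, 7.8 and 10 on the Tg arrays and 17.6, 6.5 and 6.5 on the wt arrays, and Psmb11, the catalytic subunit of the thymus, with 5.8, 45.4 and 16.1 against 70.7, 44.3 and 50. Signals are MAS5 intensities on a linear scale, and differences are given as log2 fold changes, Tg minus wt, of log2(signal + 16). The 2 genes set apart were Psmc3ip, at -0.24 ± 0.27 (SE), and Psme3ip1, at -0.12 ± 0.12 (SE).

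Before any comparison, wt 1 and wt 2 stood apart in a control probeset for the 3' end of 18S rRNA, with signals of 13960 and 10375, against 2286.5 for wt 3 and 975.5 to 3313 for the Tg arrays. Over the kept probesets, the median signal lay between 309.7 and 318.9 on the Tg arrays, and between 297.3 and 305.4 on the wt arrays. The brightest probeset for Glud1 itself differed by -0.15 ± 0.08 (SE) on the log2 scale, and whether it detects the transgene is not given in the sources used here, so it does not check the labels.

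Proteasome gene expression differed little between the genotypes. Log2 fold changes of the 45 genes ran from -0.34 (Psme1) to 0.23 (Psmb10) with a median of 0.0054, 23 genes being higher and 22 lower in Tg mice. Over all 13854 genes that passed the filter, the median was -0.031 and 44.1% were higher. After Benjamini-Hochberg adjustment over 31076 probesets with limma, 0 of the 45 genes passed the threshold of 0.05, the smallest adjusted p being 0.326, and limma called 0% of all genes. Cyber-T and SAM also called 0 of the 45, and over all 31076 probesets they called 65 and 1. SAM asked for a 1.3-fold difference, which none of the 45 genes reached, so its 0 was fixed in advance. At an unadjusted p under 0.05, 1 gene was higher (Psma3; 2.9% of all genes) and 1 lower (Psme1; 4.97% of all genes). When each array was centred on its median, the 23 higher genes (51.1%) became 12 (26.7%). Over all kept probesets, the share higher then moved from 53.2% to 43% and the median from 0.020 to -0.047. These shares count every kept probeset, while the 44.1% above counts 1 probeset for each gene. The share over genes after centring is not given here.

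None of the 45 genes reached a 1.3-fold difference (15% of all genes did). For 31 of the 45 the whole 95% interval of the fold change lay within 1.3-fold in either direction, against 27.4% of all genes. The width of the interval follows the spread between arrays, whose median SD within groups was 0.112 for the proteasome genes and 0.198 for all genes on the log2 scale, so the 2 shares also differ in precision. In limma without the intensity trend, 16 of the 45 intervals lay within 1.3-fold. The share of all genes at that setting is not given here, so the 16 cannot be set against 27.4%. Without wt 1 and wt 2 the wt group has no spread of its own, so no count is given for that fit. Counting intervals within 1.3-fold was chosen after the data were seen. The plot of fold changes with their intervals shows the genes by particle.

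**Figure D1:**
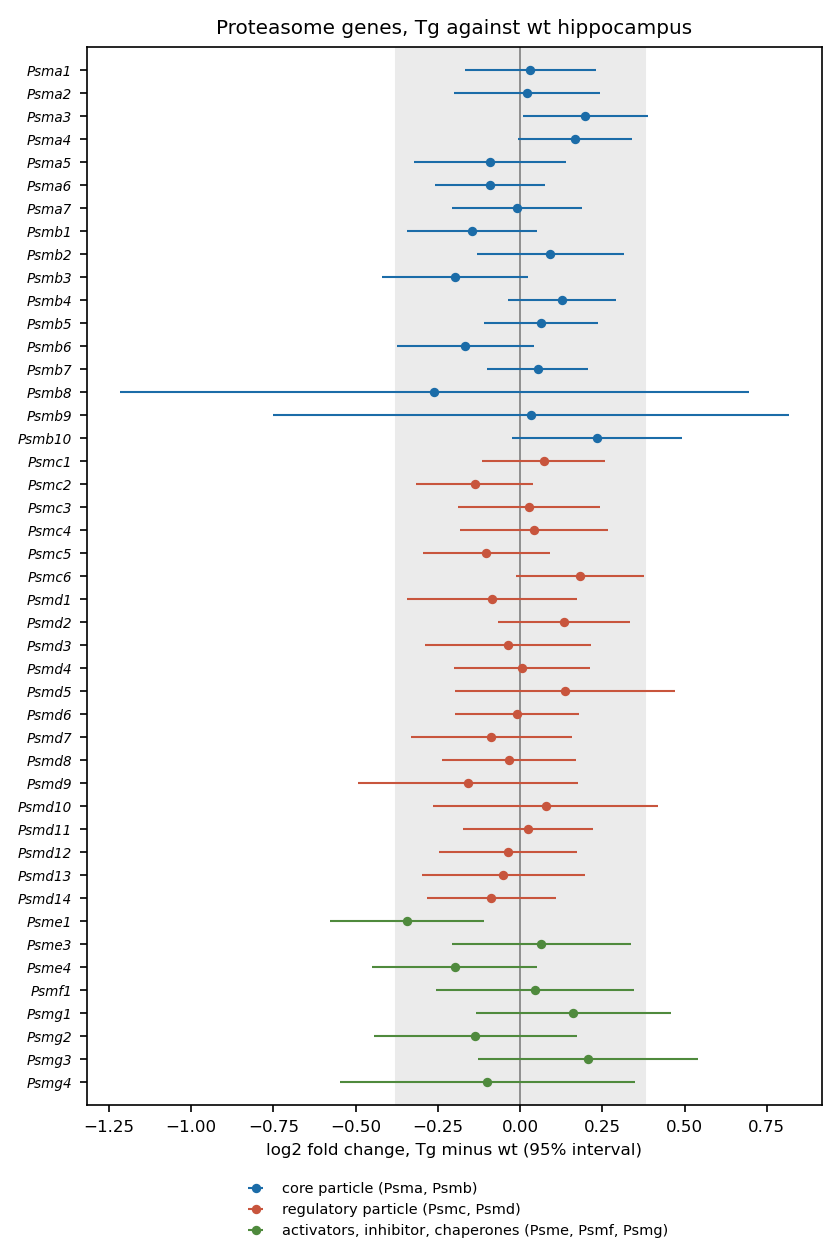
Log2 fold change (Tg minus wt, x axis) of the 45 proteasome genes with 95% intervals from limma, coloured by particle, with a grey band for 1.3-fold either way. All points lie within the band, and the intervals of Psmb8 and Psmb9 are the widest.

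Every Tg array was above every wt array for 4 genes (5.2% of all genes), namely Psma4, Psmb4, Psmb10 and Psmc6. Every Tg array was below every wt array for 3 genes (8.81% of all genes), namely Psma6, Psme1 and Psme4. The core particle, with 17 of the 45 genes, holds 3 of the 4 higher genes and 1 of the 3 lower ones (Psma6). The counts are small, and whether they differ from their backgrounds or between the particles was not tested.

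In the core particle, 10 of 17 measured genes were higher and 7 lower, with a median of 0.031, but 5 were higher after median centring, where the median was -0.035. The mean log2 level of the 17 genes, taken relative to the 6 arrays, ran from -0.012 to 0.015 on the Tg arrays and from -0.051 to 0.047 on the wt arrays. The Tg range thus lay inside the wt range on this measure, in which the dim Psmb8 counts as much as a bright gene. Summed signals of the 17 genes overlapped without such nesting, at 64208 to 67463 in Tg and 62915 to 65579 in wt mice.

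The alpha ring closes the entrance of the barrel until a cap docks. Of its 7 measured genes 4 were higher (2 after median centring), 3 were lower, and 6 had an interval within 1.3-fold. The exception was Psma3, whose signal was 7684, 9417 and 8426 on the Tg arrays and 7102, 7765 and 7321 on the wt arrays. Tg 1 lay below wt 2, so the groups overlapped. The difference was 0.20 ± 0.087 (SE), with an unadjusted p of 0.0428 and an adjusted p of 0.496 in limma. Psma4, another alpha subunit, measured 4588, 5091.5 and 4734 in Tg and 4344, 4266 and 4219.7 in wt mice, without overlap (0.17 ± 0.079, SE, adjusted p = 0.532 in limma). Psma6 ran the other way, at 5856, 5962 and 5607 against 6045, 6519 and 6006 (-0.091 ± 0.076, SE). Its representative probeset carries the suffix for possible cross-hybridisation. The remaining alpha genes, Psma1, Psma2, Psma5 and Psma7, lay between -0.092 and 0.031.

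The proteolytic sites are carried by Psmb5, which cuts after hydrophobic residues, Psmb6, which cuts after acidic ones, and Psmb7, which cuts after basic ones. For Psmb5 the signal was 4354, 4153 and 4059.6 in Tg and 4042, 3848 and 4129 in wt mice. Psmb6 gave 2626, 2552.5 and 2941 against 3086, 3229 and 2799.7. Psmb7 gave 9871, 9947.5 and 9285 against 9188, 9599 and 9257. Tg and wt arrays overlapped for each of them, and all 3 intervals lay within 1.3-fold. The log2 fold changes were 0.064 ± 0.08 (SE) for Psmb5, -0.17 ± 0.10 for Psmb6 and 0.053 ± 0.071 for Psmb7.

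The interferon-inducible counterparts replace these subunits in the immunoproteasome, Psmb8 in place of Psmb5, Psmb9 in place of Psmb6 and Psmb10 in place of Psmb7. Psmb8 had dim signals of 119, 48.2 and 123 in Tg and 56.1, 148 and 159 in wt mice, with low arrays in both groups. Psmb9 was also dim, at 58.4, 111.5 and 114 against 76.5, 90.9 and 100.1. Their differences, -0.26 and 0.033, had intervals from -1.22 to 0.69 and from -0.75 to 0.82, so that differences of that size were not detectable with these arrays. Psmb10 was measured more tightly, at 1141, 1135 and 1127 in Tg and 939, 1091 and 869.9 in wt mice. All Tg arrays were above all wt arrays, by 0.23 ± 0.12 (SE; adjusted p = 0.556 in limma), and without wt 3 the difference was 0.16 and without wt 2 it was 0.32. None of the 3 genes had an interval within 1.3-fold.

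**Figure D2:**
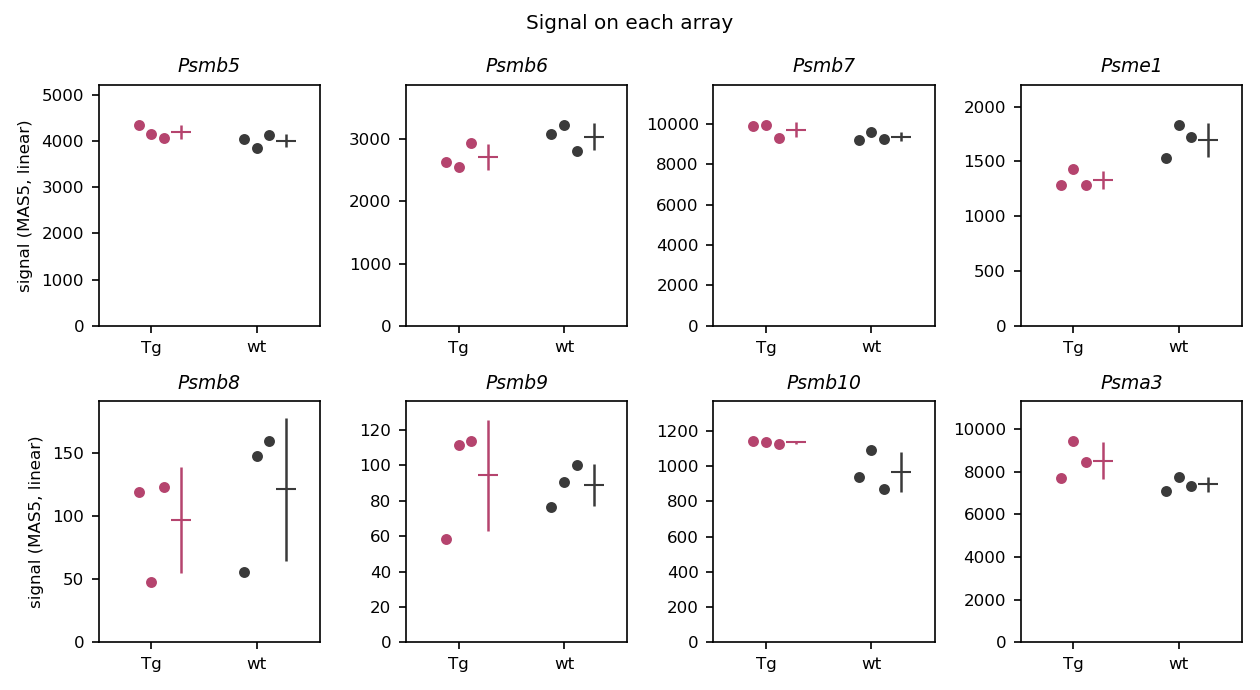
Signal (MAS5, linear, y axis from 0) of 8 proteasome genes on each array, Tg in pink and wt in black, with the mean and SD of the 3 arrays beside the points. Psme1 and Psmb10 are without overlap between the groups, and the catalytic subunits Psmb5, Psmb6 and Psmb7 overlap.

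The structural beta subunits Psmb1, Psmb2, Psmb3 and Psmb4 complete the inner rings. Psmb4 was higher without overlap, at 6793, 6372 and 6188 in Tg and 5839.7, 6048 and 5816 in wt mice (0.13 ± 0.076, SE, adjusted p = 0.620 in limma), while its other probeset was at -0.047 with overlap. Psmb3 measured 3274, 3212 and 3079 against 4086, 3787.5 and 3161, with wt 1 the highest array and wt 3 within the Tg range (-0.20 ± 0.10, SE). Psmb1 was at -0.15 and Psmb2 at 0.092, both with overlap. Beta subunits therefore lay on both sides of 0, without a shared direction.

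In the regulatory particle, 9 of 20 genes were higher and 11 lower, with a median of -0.022, and 5 were higher after median centring, while the median was 0.012 after quantile normalization. The mean log2 level of the 20 genes ran from -0.011 to 0.0081 on the Tg arrays and from -0.015 to 0.020 on the wt arrays. On this measure the Tg range again lay inside the wt range. Summed signals overlapped without such nesting, at 59094 to 61614 in Tg and 59452 to 62562 in wt mice. For 17 of the 20 genes the interval lay within 1.3-fold.

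The ATPase ring, formed by Psmc1 to Psmc6, had 4 genes higher (2 after median centring) and 2 lower, and all 6 intervals lay within 1.3-fold. Psmc6 was the gene without overlap, at 2352, 2232 and 2392 on the Tg arrays and 1984, 2034 and 2120.1 on the wt arrays (0.18 ± 0.089, SE, adjusted p = 0.541 in limma). Its other kept probesets were lower in Tg mice with overlap, at -0.085 and -0.35. Psmc5 measured 5802, 6157 and 5910.4 against 7217, 6082.5 and 5958, with wt 1 above the rest (-0.10 ± 0.089, SE). The others ran from -0.14 for Psmc2 to 0.072 for Psmc1.

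The non-ATPase base holds the scaffold proteins Psmd1 and Psmd2 and the ubiquitin receptor Psmd4. Psmd4 was level at its brightest probeset, with 2632, 2532 and 2908 in Tg and 2759, 2803 and 2478 in wt mice (0.0054 ± 0.095, SE). Psmd1 was at -0.086 and Psmd2 at 0.13, and all 3 intervals lay within 1.3-fold. The chaperones Psmd5, Psmd9 and Psmd10, which help to assemble the base and are not part of the finished particle, were less precise. Psmd9 gave 413, 423 and 455 in Tg against 433, 473 and 546 in wt mice (-0.16 ± 0.15, SE), Psmd5 was at 0.14 and Psmd10 at 0.078, and none of the 3 intervals lay within 1.3-fold.

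The lid, which includes the ubiquitin-removing enzyme Psmd14, had 7 of 8 genes lower in Tg mice by small values, with 6 lower after quantile normalization and 8 after median centring. They ran from -0.087 (Psmd7) to 0.024 (Psmd11), every lid gene overlapped between the groups, and all 8 intervals lay within 1.3-fold. Psmd14 measured 5451, 5652 and 4836 in Tg and 6149, 5344 and 5438 in wt mice (-0.087 ± 0.09, SE). Psmd11, the exception in sign, measured 6449, 6602 and 5382 against 5956, 6239 and 5871, and its representative probeset may be shared with other genes by its suffix. Over all genes 44.1% were higher, and these small differences within the lid have no test of their own.

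The activators bind the ends of the core particle in place of the regulatory particle. Psme1, a subunit of the interferon-inducible activator that is tied to antigen processing, was the lowest of the 45 genes. Its signal was 1285, 1427 and 1283 on the Tg arrays and 1534, 1835 and 1721 on the wt arrays, a mean of 1332 ± 82.8 against 1696 ± 152 (SD, n = 3 in each group). The 3 Tg arrays lay below the 3 wt arrays. The difference was -0.34 ± 0.11 (SE), with a 95% interval from -0.58 to -0.11, an unadjusted p of 0.00783 and an adjusted p of 0.326 in limma. It did not pass the threshold. When single arrays were left out, its difference ran from -0.41 to -0.29 with adjusted p from 0.208 to 0.707 in limma, and without wt 1 and wt 2 it was -0.37. Psme1 was measured by 1 probeset.

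Psme3, a nuclear activator, measured 975.2, 1079 and 1260.4 in Tg and 1008.5, 1005 and 1141 in wt mice (0.065 ± 0.13, SE). Psme4, an activator linked to the degradation of acetylated histones, measured 1182, 1042 and 952 against 1232, 1188 and 1218 at its brightest probeset (-0.20 ± 0.11, SE). The inhibitor Psmf1 was level, at 533, 520.1 and 614 against 530.4, 542 and 538 (0.046 ± 0.14, SE). Of these, Psme4 at its brightest probeset was without overlap between the groups, while dimmer probesets of the gene were higher in Tg mice, as given below.

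The chaperones Psmg1 to Psmg4 assemble the alpha ring and showed no common direction. Psmg1 measured 688.5, 887 and 810.0 in Tg and 656, 759 and 705 in wt mice. Psmg2 measured 696, 910.2 and 954 against 929, 1012 and 859. Psmg3 measured 565, 622 and 550.2 against 427, 500.3 and 579. Psmg1 and Psmg3 were higher on average and Psmg2 lower, with overlap each time. Psmg4, at 549, 317 and 505 against 421, 546 and 476, had the largest scatter of the 4. The differences were 0.16, -0.14, 0.21 and -0.10 in order, and none of the 4 intervals lay within 1.3-fold.

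**Figure D3:**
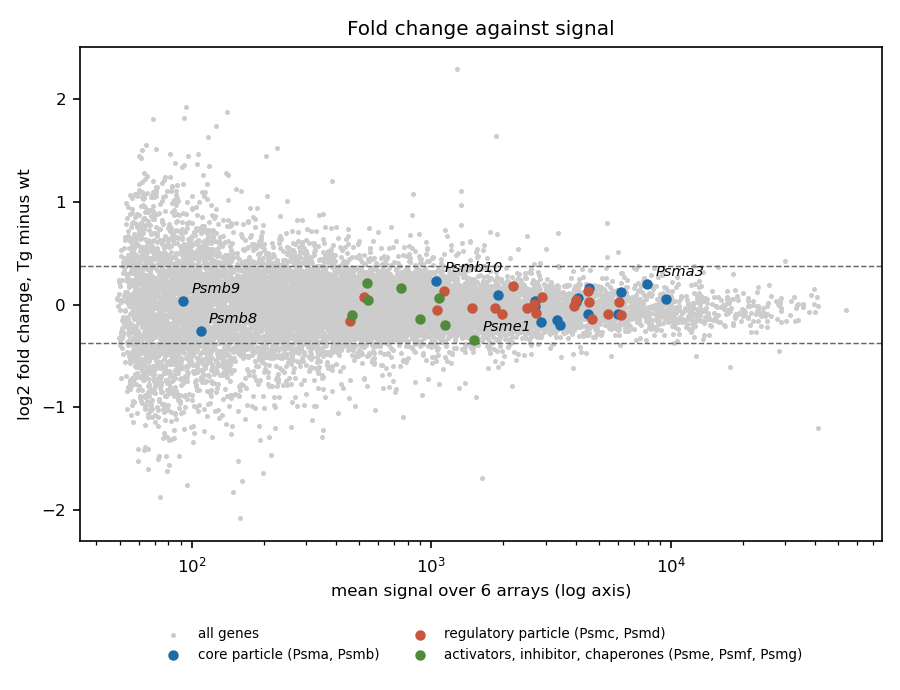
Log2 fold change (Tg minus wt, y axis) against the mean signal over 6 arrays (log axis) for all 13854 genes in grey and the 45 proteasome genes in colour, with dashed lines at 1.3-fold. The proteasome genes lie between the lines, and the dim Psmb8 and Psmb9 stand at the left.

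A further 40 kept probesets belong to proteasome genes but are not the brightest of their gene. Of 20 genes with several kept probesets, 7 had all of them on the same side of 0 and 13 had both signs. For Psme4 a dimmer probeset was higher in Tg mice, at 658, 617.5 and 647 against 384, 525 and 532 and without overlap, a difference of 0.42 ± 0.16 (SE; unadjusted p = 0.0207, adjusted p = 0.421 in limma), while the brightest was lower. The remaining kept Psme4 probesets had overlap, 1 at -0.0039 and the dim ones at 0.45, 0.27 and 0.38. The direction of Psme4 thus differs between its probesets, and the brightest carries the suffix for a probeset shared by several genes. For Psmd4 a dim probeset gave 46.5, 35.3 and 202 in Tg and 323, 220.1 and 124 in wt mice (-1.33 ± 0.51, SE, unadjusted p = 0.0224 and adjusted p = 0.427 in limma). Tg 3 lay above wt 3 there, and the brighter Psmd4 probesets differed by 0.0054 and 0.053. For Psma3, the dim second probeset was at -0.17, opposite to the brightest, and with the log2 values of both averaged the difference was 0.013.

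**Figure D4:**
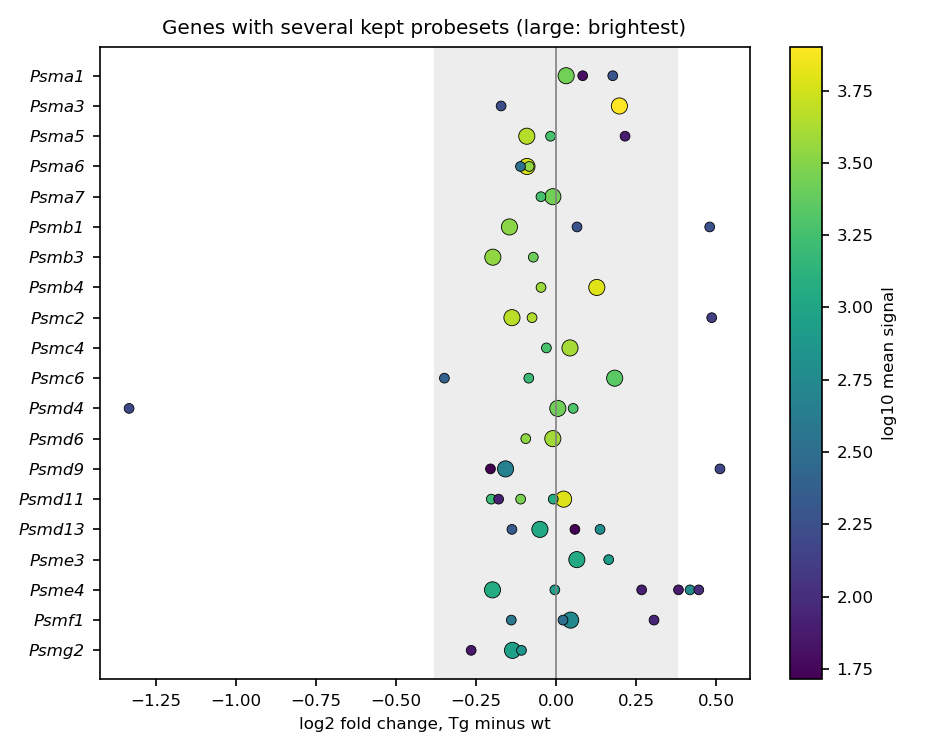
Log2 fold change (Tg minus wt, x axis) of each kept probeset of the 20 proteasome genes with several, coloured by log10 mean signal, large for the brightest of a gene and with a grey band for 1.3-fold. The brightest probesets lie within the band, and the point far left is a dim Psmd4 probeset at -1.33.

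The start regions of the genes with an unadjusted p under 0.05 are shown for the promoter motifs known to act on proteasome genes. They are from RefSeq, build GRCm38.p6, 150 bases before and 30 after the start, and 39 of the 47 genes had such a window in the table used. Capitals mark matches, on either strand, to CCAAT (the binding motif of the Nfya complex) and to the interferon-stimulated response element core. The Psma3 region, at chr12:70974473-70974652 on the plus strand, holds CCAAT on the plus strand from -139 and on the minus strand from +14. Another match lies just beyond it, from +31. The Psme1 region, at chr14:55578344-55578523 on the plus strand, holds the interferon element on the minus strand from +10.
Psma3: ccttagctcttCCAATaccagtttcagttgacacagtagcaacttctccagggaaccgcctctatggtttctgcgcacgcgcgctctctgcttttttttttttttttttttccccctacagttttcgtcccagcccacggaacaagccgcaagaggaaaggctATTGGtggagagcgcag
Psme1: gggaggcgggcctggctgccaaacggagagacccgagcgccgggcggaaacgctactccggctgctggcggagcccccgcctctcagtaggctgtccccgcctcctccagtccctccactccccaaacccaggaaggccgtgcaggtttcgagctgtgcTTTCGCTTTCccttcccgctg

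In windows of 300 bases, 250 before and 50 after the start, CCAAT was found in 14 of 39 genes. These 39 genes have 41 windows, of which 14 hold CCAAT, against 37.4% of all 32851 windows. The 13 measured genes with CCAAT ran from -0.20 to 0.20. The interferon-stimulated response element core was found in 5 genes, Psmb3, Psmd4, Psmd9, Psme1 and Psmg4, in 5 of 41 windows and in 3.44% of all windows. Their log2 fold changes ran from -0.34 to 0.0054. The antioxidant response element core TGACNNNGC is bound by the factors Nfe2l1 and Nfe2l2. It was found in 6 genes (Psmb5, Psmb6, Psmc6, Psmd9, Psmd12 and Psme4), in 6 of 41 windows and in 12.4% of all windows. Those 6 genes ran from -0.20 to 0.18. TTCNNNGAA, the gamma interferon activation site, was found in Psmb8, Psmd2 and Psmg1, in 3 of 41 windows and in 8.3% of all windows. Those 3 genes ran from -0.26 to 0.16. A match is a description of letters and not of binding. Proteasome genes are scattered over 16 chromosomes, with few close together. Psmb5 and Psmb11 adjoin on chromosome 14, Psme1 and Psme2 are separated there by Emc9, and Psmb8 and Psmb9 on chromosome 17 are separated by Tap1.

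Genes that work with the proteasome were taken from lists described by their counts alone. Of 13 proteasome-associated factors, which include the deubiquitinases Usp14 and Uchl5 and the core assembly factor Pomp, 11 were measured, 2 were higher and 9 lower, with a median of -0.096, and 0 had an unadjusted p under 0.05 in limma. The thioredoxin-like Txnl1 measured 4961, 4666 and 5370.5 in Tg and 5606, 5595 and 5379 in wt mice (-0.15 ± 0.081, SE), and Zfand5, an activator of degradation, was at -0.092. The single gene measured alone among 6 for ubiquitin and its activating enzymes was Uba6, at -0.19 ± 0.16 (SE).

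Among shuttle factors and the Vcp segregase, which bring substrates to the proteasome, 9 of 12 genes were measured, 3 being higher and 6 lower. Nploc4, a cofactor of Vcp, measured 646, 661 and 624 on the Tg arrays and 506.5, 454 and 436 on the wt arrays, without overlap (0.46 ± 0.14, SE, adjusted p = 0.300 in limma). Nsfl1c, another cofactor of Vcp, was lower without overlap, at 3949, 4371 and 3658 against 4863, 5033 and 4667.5 (-0.28 ± 0.088, SE, adjusted p = 0.320 in limma). These 2 cofactors had opposite signs and neither passed the threshold. The shuttle Ubqln2 and the autophagy receptor Sqstm1 were at -0.081 and 0.083.

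Of 12 regulators of proteasome gene transcription, 11 were measured, 7 higher and 4 lower, with a median of 0.028 (4 higher and a median of -0.038 after median centring). Nfya, a subunit of the CCAAT-binding complex, measured 420.5, 433 and 422 in Tg and 263, 363 and 327 in wt mice, without overlap (0.42 ± 0.17, SE, adjusted p = 0.471 in limma). Its partners Nfyb and Nfyc were at 0.22 and 0.019. Nfe2l1 was at 0.12 and Sel1l, a component of endoplasmic reticulum degradation, at -0.12.

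Of 13 partners of the immunoproteasome in antigen presentation, 11 were measured, 2 higher and 9 lower, with a median of -0.18. The chaperone of class I assembly Calr measured 8705.5, 7604 and 7509.6 in Tg and 9707, 9673 and 8938 in wt mice, without overlap (-0.25 ± 0.082, SE, adjusted p = 0.344 in limma). For the class I heavy chain H2-K1 the signals were 946, 895 and 1083 against 1167, 1501 and 1082.5 (-0.34 ± 0.14, SE, adjusted p = 0.460 in limma). H2-D1 gave 1476, 1048 and 1240.0 against 1284.5, 2171 and 1625, with wt 2 the highest array (-0.41 ± 0.18, SE, adjusted p = 0.489 in limma). Of the 2 higher genes, the interferon response factor Irf9 measured 227, 239.7 and 199 against 145, 187 and 147, without overlap (0.44 ± 0.23, SE, adjusted p = 0.568 in limma), and the peptide transporter Tap1 was at 0.30 with overlap. Irf9 had the largest value of the list in either direction, and 0 genes of the list passed the threshold. Both H2 probesets carry the suffix for possible cross-hybridisation, and B2m, the light chain, was at -0.14 with overlap. Microglia and endothelial cells are sources of such genes, and 7 of 10 microglial and 6 of 7 endothelial markers were lower in Tg mice, with summed signals of 16543 to 17578 on the Tg and 17867 to 19648 on the wt arrays for microglia and of 2631 to 3403 and 3159 to 3376 for endothelial cells. The mean log2 level of the microglial markers overlapped between the groups, at -0.066 to 0.018 in Tg and -0.033 to 0.12 in wt mice. Their part in the values of Psme1 and its partners was not tested.

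Markers of hippocampal regions differed between the arrays. All 10 markers of dentate gyrus granule cells were higher in Tg mice (median 0.33, and 9 of 10 after median centring), and 6 of 7 of retrohippocampal cortex were lower (median -0.61). For granule cells the mean level on the Tg arrays lay between 0.13 and 0.28, and on the wt arrays between -0.40 and 0.046. For retrohippocampal cortex it lay between -0.45 and -0.16 on the Tg arrays, and between 0.19 and 0.39 on the wt arrays. Neither list overlapped between the groups, while the levels of both proteasome particles did. Both lists hold genes that the study reported as changed on these same arrays. Satb1, Tshz2, Slc17a6 and Nts were reported as lower, and Dsp, Calb1 and Sema5a as higher. The separation of the lists is therefore no independent support. Of the other retrohippocampal markers, Fn1 was at -0.47, Nr4a2 at -0.093 and Lmo3 at 0.022. Of the neuronal markers 3 of 8 were higher, of the astrocyte markers 1 of 8, of the oligodendrocyte markers 3 of 7 and of the choroid plexus markers 0 of 7. The choroid plexus level did not separate the groups, since Tg 2 was the highest array (1.59) and Tg 3 the lowest (-2.25), with Tg 1 at -0.39 and the wt arrays at 0.22 to 0.44. The part of these markers in the values of single proteasome genes was not tested.

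**Figure D5:**
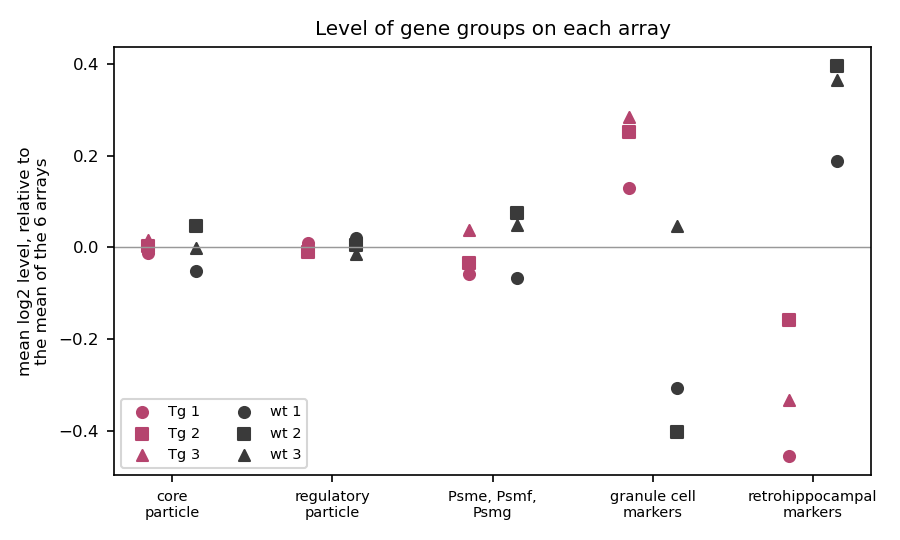
Mean log2 level of gene groups on each array (y axis), relative to the mean of the 6 arrays, Tg in pink and wt in black with a symbol for each array number. The core and regulatory particles lie near 0 with overlapping groups, and the 2 marker lists separate Tg from wt arrays.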

How the data were processed

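Hippocampal RNA of 3 Tg and 3 wt mice was hybridized to Affymetrix Mouse Genome 430 2.0 arrays, 1 per mouse. The deposited intensities are MAS5 signals per probeset on a linear scale, which the authors scaled so that the trimmed mean (2% at each end) is 500.0 on every array, with nothing further between arrays. The study's own analysis used RMA values, detection calls, SAM and Cyber-T, and scanner images were not used here.

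Of 45101 probesets, 64 controls were set aside and the dimmest 31% by mean log2 signal over the 6 arrays were left out, which kept 31076. Of 45037 probesets that are not controls, 34945 were annotated to 1 gene, 932 to several and 9160 to none. The brightest probeset by mean signal stood for a gene. Signals were analysed as log2(signal + 16), which shrinks differences of dim probesets. Tg was set against wt in limma 3.58.1 under R 4.3.3 (moderated variances with an intensity trend), with Benjamini-Hochberg adjustment over all kept probesets and a threshold of 0.05. The 95% intervals are for single genes. Cyber-T used a window of 101 and a confidence of 10, SAM drew on all 20 relabellings and asked for 1.3-fold at an estimated false discovery rate of up to 1%. On simulated arrays, limma and Cyber-T were checked for recovering the mean fold change, and not for power or false calls. SAM was not simulated. Promoters were scanned in Python 3.11 and figures drawn with matplotlib 3.10.9. The number of arrays limits the precision.

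Named with all signals were the catalytic and interferon-inducible subunits, activators, inhibitor and Psmg chaperones, and in each of the Psma, Psmb, Psmc and Psmd groups the brightest and dimmest gene and any with an unadjusted p under 0.05, at any probeset. From each pathway list the genes with an unadjusted p under 0.05 and the 2 brightest were named. Psma4, Psma6, Psmb3, Psmb4, Psmd14, Nfyb, Nfyc, Irf9, Tap1, Usp14, Uchl5 and Pomp were added after their values were seen or for their role. The members and lists were chosen with earlier results of these data known, so no count of them is independent support. Alternatives were other constants, scalings, filters, variance models and tests, a block for the replicate number, averages of a gene's probesets and leaving out arrays.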

Additional observations from a re-analysis of the deposited data

How the results depend on the processing

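Of the 45 proteasome genes, 0 were called under every alternative run, among them Cyber-T, SAM, the study's thresholds and the fit with the replicate number as a block, which left 0 called and, at an unadjusted p under 0.05, had 1 gene higher and 1 lower. Over all probesets Cyber-T called 65 and SAM 1. The study's p and fold thresholds, without its false discovery rate, held for 2148 probesets. They were applied here to limma on MAS5 signals, where the study used Cyber-T and SAM on RMA values. Correlations of same-numbered deviations were -0.016, 0.0078 and 0.033. With 3 arrays a group, these values cannot settle whether the array numbers pair the mice. The other counts are small and moved with the processing, and the cause was not tested. For counts at an unadjusted p under 0.05 and of intervals, the share of all genes at each alternative setting is not given here. These counts therefore describe the processing and are not results about the proteasome genes. Genes higher at an unadjusted p under 0.05 numbered 4 after quantile normalization, 3 with array weights, 2 with the mean of a gene's probesets and 0 with median centring, without the filter and without the trend. Genes lower numbered 6 with median centring, which also left 5 core and 5 regulatory genes higher and medians of -0.035 and -0.089. The regulatory median was 0.012 after quantile normalization and 0.011 without wt 1 and wt 2. With single arrays left out, genes at an unadjusted p under 0.05 ran from 0 to 2 (higher) and 1 to 2 (lower), the core median from -0.0049 to 0.054 and the regulatory median from -0.035 to 0.0022. Intervals within 1.3-fold, a count chosen after seeing the data, numbered 16 without the trend, 18 without wt 1 and wt 2, and 22 to 32 with single arrays left out. Among the named probesets, 7 of 36 changed sign with median centring and 7 with the mean of probesets. The 3 arrays a group, and the dim signals of Psmb8 and Psmb9, limit what can be resolved.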
